A study of Mus musculus with 29 samples.

Results

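The miR-133 microRNAs (miRNAs) of mouse muscle and serum are described here through 3 mature products: mmu-miR-133a-3p, mmu-miR-133a-5p and mmu-miR-133b-3p, written below without the species prefix. They were taken by name from a table of 1183 mature miRNAs, and all 3 are among the 695 miRNAs with a value, 0 included, for every library. The study sequenced small RNA of the tibialis anterior, a muscle of the front of the lower leg, and of serum of C57BL/6 mice to profile wasting with age and wasting induced at a younger age. Young mice were 6-month-old controls, old mice were 24-month-old controls, and disuse mice were 6 months old and carried wasting brought on by disuse. Young, old and disuse muscle had 5 libraries each, as did young serum and disuse serum, and old serum had 4. How disuse was imposed, and for how long, is not given in the sources used here. GEO's labels do not say that the numbered libraries of a group are separate animals, so p-values measure only the spread between the libraries, which may be technical. They also do not say whether a muscle and a serum library share an animal. Fewer muscle cells and less RNA per cell cannot be told apart in such bulk samples.

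miR-133 is made in skeletal and heart muscle and is counted among the myomiRs, the miRNAs that the muscle regulatory factors switch on. Its genes lie beside those of miR-1 or miR-206, and the neighbours are transcribed together. Each hairpin is cut into a duplex of a 5p and a 3p strand. The 3p strand of miR-133 is mostly kept in Argonaute, where its seed pairs with messenger RNAs such as that of serum response factor, and the 5p strand is mostly degraded. Muscle miRNAs in serum are studied as markers of muscle damage.

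Of the 3 members, miR-133b-3p matched a mature sequence in the RefSeq table (build GRCm38.p6). Its sequence is shown with that of the opposite strand and of its cluster partner miR-206-3p, because the seed, bases 2 to 8 from the 5′ end and here in capitals, is what sorts these miRNAs into families.
mmu-miR-133b-3p: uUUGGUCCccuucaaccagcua
mmu-miR-133b-5p: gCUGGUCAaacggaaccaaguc
mmu-miR-206-3p: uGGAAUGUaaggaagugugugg
miR-133b-3p and miR-206-3p come from neighbouring hairpins and have different seeds.

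The hairpin of Mir133b is shown because it displays how both strands sit in such a precursor; the 5p strand and then the 3p strand are in capitals.
Mir133b hairpin: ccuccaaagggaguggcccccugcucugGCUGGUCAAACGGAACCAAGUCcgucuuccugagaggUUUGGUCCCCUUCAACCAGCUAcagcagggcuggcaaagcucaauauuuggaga
It lies at chr1:20682769-20682887 on the plus strand, with miR-133b-3p at chr1:20682834-20682855. In the gene annotation it sits within an exon of both transcripts of the long intergenic RNA Gm28653 (chr1:20669882-20684298). It starts 3686 bases after the end of Mir206 (chr1:20679010-20679082). Mir133a-2, a gene of miR-133a, lies at chr2:180398379-180398482, 9254 bases after the end of Mir1a-1 (chr2:180389048-180389124). miR-133a-3p and miR-133b-3p are nearly identical in sequence, and how their counts are split is uncertain, since the rule that assigned reads to either is not given in the sources used here.

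Library totals over the complete miRNAs were 254624 to 5943445 counts in muscle and 45176 to 309133 in serum. Young muscle was shallower, with a median of 535754 counts against 2825032 in old and 2298437 in disuse muscle. RNA was extracted with Trizol from muscle and with a kit from 300 µl of serum, and each library took 2 µg of RNA from muscle or 10 ng from serum, so source and preparation cannot be told apart. miR-499-5p and miR-208b-3p, which are made within slow-fibre myosin genes, summed to 16.4 to 55.9 CPM in the muscle libraries, where CPM are counts scaled by the total of their library. In serum they had at most 1 count per group. Intervals and limits of shares cover counting error only, because amplified reads without molecular identifiers are not separate molecules.

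miR-133a-3p, the guide strand of miR-133a, had the most counts of any miRNA in all 15 muscle libraries. Whether counts of different miRNAs follow their amounts in the tissue was not tested. In young muscle it took 40.3%, 45.8%, 37.6%, 43.2% and 49.4% of the counts of libraries 1 to 5. In old muscle its share was 50.6%, 43.4%, 52.2%, 38.1% and 46.9%. In disuse muscle it was 46.4%, 49.1%, 45.6%, 48.9% and 48.9%. The 3 groups overlapped, and disuse muscle had the narrowest range, from 45.6% to 49.1%. Group means were 43.2% ± 4.61 (SD, n = 5) in young, 46.3% ± 5.68 (SD, n = 5) in old and 47.8% ± 1.64 (SD, n = 5) in disuse muscle.

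In serum miR-133a-3p ranked between 30 and 69 by counts. Young serum held 4639, 2486, 3103, 612 and 1860 CPM, from 620, 436, 305, 178 and 128 counts. Old serum held 1733, 1699, 2730 and 2745 CPM, from 138, 443, 483 and 124 counts. Disuse serum held 3550, 835, 1064, 3403 and 3495 CPM, from 619, 107, 178, 1052 and 619 counts. The old libraries lay inside the range of the young, while disuse serum fell into 3 libraries at 3403 CPM or more and 2 at 1064 CPM or less. Means were 2540 ± 1492 CPM (SD, n = 5) in young, 2227 ± 590 (SD, n = 4) in old and 2469 ± 1391 (SD, n = 5) in disuse serum.

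miR-133b-3p, which comes from the cluster with miR-206, had far fewer counts. Young muscle had 995, 931, 809, 592 and 914 CPM. Old muscle had 1424, 814, 1421, 732 and 1092 CPM. Disuse muscle had 917, 1487, 1056, 1074 and 1061 CPM. Old and disuse muscle reached higher than any young library but overlapped young muscle at their lower ends. The means were 848 ± 158, 1097 ± 326 and 1119 ± 215 CPM (SD, n = 5 each).

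In serum miR-133b-3p was close to the detection limit. Counts were 1, 1, 1, 4 and 1 in young serum, and 3, 3, 2 and 0 in old serum. In disuse serum they were 7, 1, 1, 12 and 6. The 0 in old serum 4, which had 45176 counts in all, allows up to 66.4 CPM, more than any serum library showed. The highest serum value was 40.1 CPM, in disuse serum 1, followed by 38.8 in disuse serum 4, 37.7 in old serum 1 and 33.9 in disuse serum 5. An order between the serum groups was not detectable at this depth. miR-133b-5p, the opposite strand, had 9 counts in all and is among the miRNAs without a value for every library, so it was not analysed further. Those counts lie in muscle if the missing value of miR-133b-5p is a serum 0.

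miR-133a-5p, the strand that is mostly discarded, had 48 to 613 counts per muscle library. It stood at 216, 152, 139, 413 and 119 CPM in young muscle. In old muscle it stood at 103, 196, 114, 179 and 95.3 CPM. In disuse muscle it stood at 107, 100.4, 189, 90.1 and 73.2 CPM. Young muscle 4 was the highest of all 15, and the lowest values were in disuse muscle, with overlap between the groups. Group means were 207.9 ± 120 CPM in young, 137 ± 46.6 in old and 112 ± 44.7 in disuse muscle (SD, n = 5 each).

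In serum miR-133a-5p had 1 to 19 counts per library. It stood at 97.3, 28.5, 91.6, 13.8 and 14.5 CPM in young serum. In old serum it stood at 50.2, 65.2, 33.9 and 44.3 CPM. In disuse serum it stood at 109, 15.6, 12.0, 32.3 and 84.7 CPM. These ranges overlapped each other, and the highest serum values overlapped the lower muscle values on this scale. Means were 49.1 ± 41.8 (n = 5), 48.4 ± 13.1 (n = 4) and 50.7 ± 43.6 CPM (n = 5, SD throughout).

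**Figure D1:**
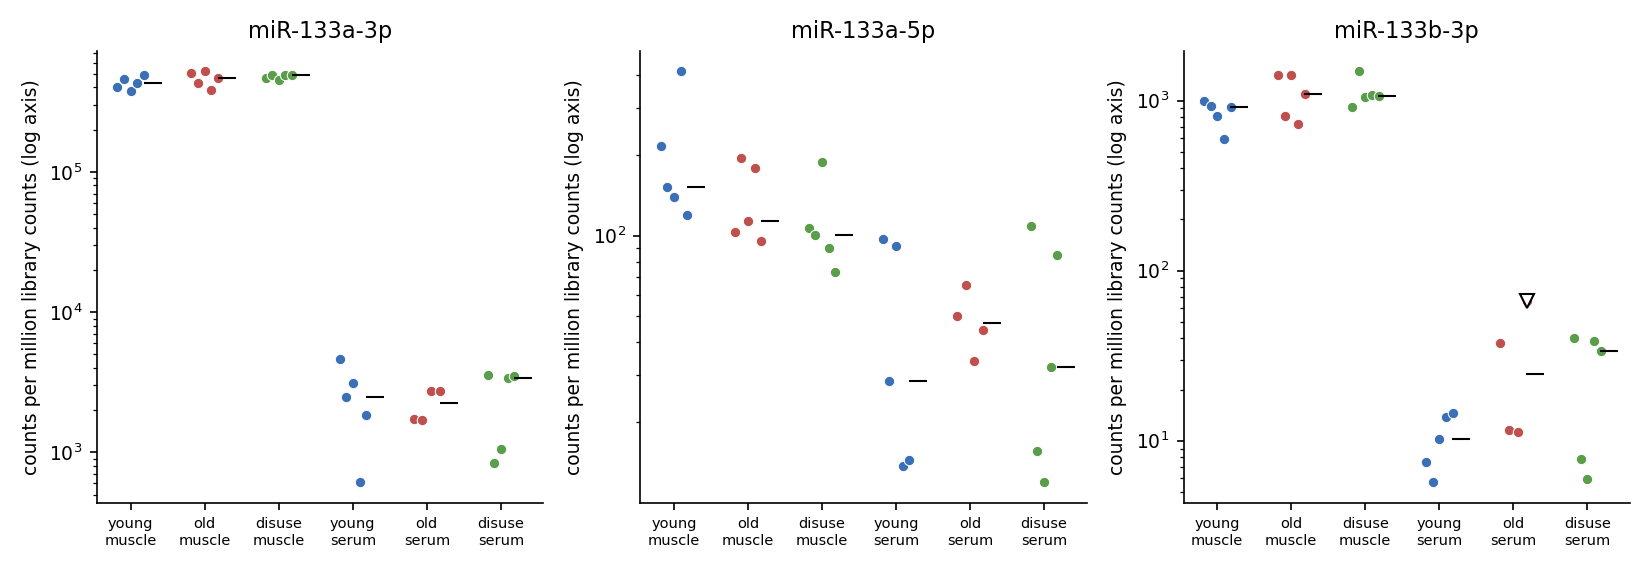
CPM (log axes) of miR-133a-3p, miR-133a-5p and miR-133b-3p in each of the 29 libraries, by group, with a line at the group median; the open triangle marks the 66.4 CPM that a count of 0 allows in old serum 4. miR-133a-3p and miR-133b-3p separate muscle from serum by a wide gap, and miR-133a-5p overlaps between the sources.

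Together the 3 members took 43.3% ± 4.61 of young, 46.4% ± 5.71 of old and 47.9% ± 1.65 of disuse muscle counts (SD, n = 5 each). In serum they took 0.260% ± 0.153 of young (n = 5), 0.229% ± 0.0568 of old (n = 4) and 0.255% ± 0.144 of disuse counts (n = 5). Nearly all of this was miR-133a-3p. Shares, arm ratios and ratios of miR-133b to miR-133a were compared in 21 two-sided exact permutation tests over libraries, with Benjamini-Hochberg adjustment over the 21. The order of the muscle groups was disuse, old and young, and no neighbours differed beyond their spread: disuse exceeded old muscle by 1.51 ± 2.66 percentage points (SE; exact permutation p = 0.619, adjusted p = 0.812). Disuse exceeded young muscle by 4.56 ± 2.19 points (exact permutation p = 0.0952, adjusted p = 0.25). Old exceeded young muscle by 3.05 ± 3.28 points (exact permutation p = 0.357, adjusted p = 0.577). In serum the differences were -0.0309 points for old against young, -0.0255 for old against disuse and -0.00542 for disuse against young, and exact permutation p-values were 0.762 to 0.976. Serum was below muscle in every library, by -43.1 points in young and -47.6 in disuse (exact permutation p = 0.00794 for both, adjusted p = 0.0417). In old mice it was lower by -46.2 points (exact permutation p = 0.0159, the smallest that 4 against 5 libraries allow, adjusted p = 0.0556).

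**Figure D2:**
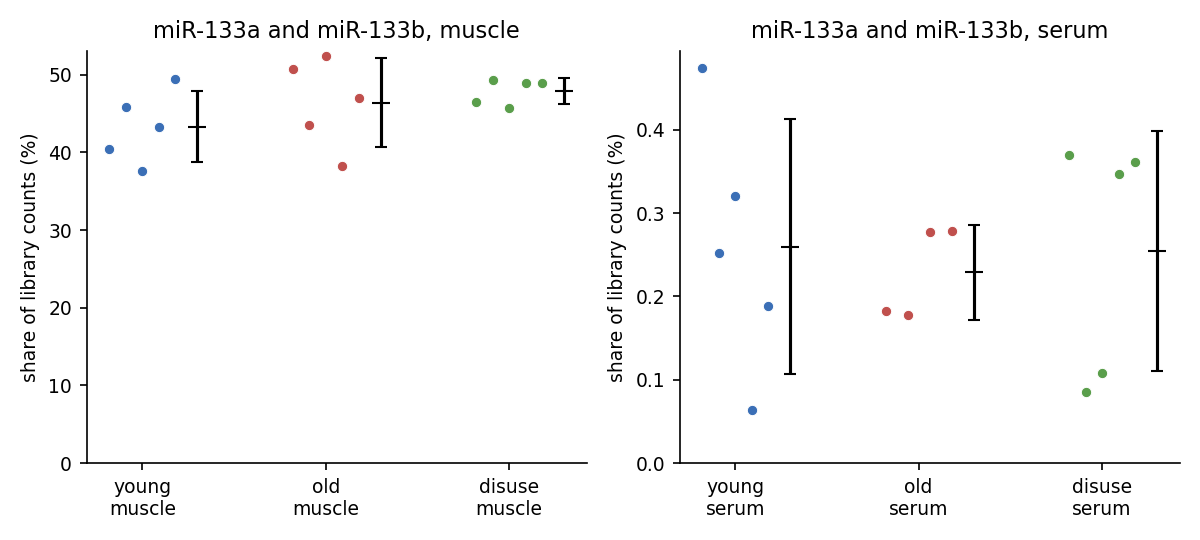
Share of library counts (%) taken by the 3 members together in each muscle library (left) and serum library (right), with the group mean and SD beside the points; the axes start at 0 and differ in scale. Muscle libraries lie between 37.6% and 52.3%, serum libraries between 0.0640% and 0.474%.

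Differences across all miRNAs were tested with edgeR's quasi-likelihood test with Benjamini-Hochberg adjustment, and a miRNA was called at an adjusted p under 0.05. Log2 fold changes are given with their SE. Between old and young muscle 5.87% of 341 tested miRNAs were called, and 0 of the 3 members (0 by DESeq2; 1 with an unadjusted p under 0.05). miR-133a-3p differed by 0.10 ± 0.14 (edgeR adjusted p = 0.723) and miR-133b-3p by 0.38 ± 0.23 (adjusted p = 0.346). miR-133a-5p differed by -0.60 ± 0.29 (adjusted p = 0.22, unadjusted p = 0.0458 in edgeR). The 5p value rested in large part on the single highest library: it was -0.12 (edgeR adjusted p = 0.831) without young muscle 4. With upper-quartile factors, which moved the median of all tested miRNAs from -0.01 to -0.21, miR-133a-3p stood at -0.12.

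Between disuse and young muscle 0.293% of the 341 miRNAs were called, and 0 of the 3 members (0 by DESeq2; 2 with an unadjusted p under 0.05). miR-133a-3p differed by 0.22 ± 0.14 (edgeR adjusted p = 0.671). miR-133b-3p differed by 0.48 ± 0.23 (edgeR adjusted p = 0.564). After scaling with edgeR's TMM factors, 4 of 5 disuse libraries lay above the young median of miR-133b-3p. On the CPM listed above, the lowest disuse library, at 917, lay above the young median of 914. miR-133a-5p differed by -0.85 ± 0.29 (edgeR adjusted p = 0.267), and 4 of 5 disuse libraries lay below the young median. Its unadjusted p of 0.00829 was the 10th smallest of the 341, and the difference was -0.43 without young muscle 4 (edgeR adjusted p = 0.758). The interval of 2 SE around the 5p difference ran from -1.43 to -0.26, and that around miR-133a-3p from -0.07 to 0.51.

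Between old and disuse muscle 3.52% of the 341 miRNAs were called and 0 of the 3 members in edgeR (0 by DESeq2; 0 with an unadjusted p under 0.05). Old minus disuse was -0.12 ± 0.14 for miR-133a-3p, 0.24 ± 0.29 for miR-133a-5p and -0.10 ± 0.23 for miR-133b-3p. The edgeR adjusted p-values were 0.717, 0.717 and 0.896.

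In serum 9.7% of 165 tested miRNAs were called between old and young, 0% between disuse and young (20 with an unadjusted p under 0.05 in edgeR, 0 called by DESeq2) and 2.42% between old and disuse. miR-133b-3p did not pass the filter on low counts and was not tested within serum. The other two members were tested and not called in any of these 3 comparisons, by edgeR or DESeq2, and neither had an unadjusted p under 0.05. Old minus young serum was -0.05 ± 0.39 for miR-133a-3p and 0.29 ± 0.62 for miR-133a-5p (edgeR adjusted p = 0.968 and 0.827). Disuse minus young serum was 0.01 ± 0.37 and 0.15 ± 0.56 (edgeR adjusted p = 0.996 and 0.965). Old minus disuse serum was -0.06 ± 0.39 and 0.15 ± 0.59 (edgeR adjusted p = 0.945 and 0.934). The intervals of 2 SE are wide: for miR-133a-3p in disuse against young serum they run from -0.72 to 0.74, and so include changes of over 1.5-fold either way. The log2 ratio of miR-451a, a miRNA of red cells, to miR-23a-3p, a common measure of red cell RNA in serum, was 2.31 ± 0.84 in young (n = 5), 0.99 ± 0.41 in old (n = 4) and 1.69 ± 0.41 in disuse serum (n = 5, SD). Its part in the serum values was not tested.

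In the edgeR fits serum held less of each member than muscle in every condition. A large part of all miRNAs differed here: 76.3% of 190 tested were called in young, 69.3% of 316 in old and 86.5% of 192 in disuse, so a call by itself does not set the members apart. miR-133a-3p was lower in serum by a log2 fold change of -8.10 ± 0.47 in young, -8.12 ± 0.31 in old and -8.14 ± 0.41 in disuse mice. These are 274-fold, 278-fold and 282-fold differences, with edgeR adjusted p-values of 4.33e-12, 1.61e-15 and 1.01e-11. The size depends on the processing: the young value was -7.41 with library totals and -7.47 thinned to the shallowest library of the fit, and the old value was -7.51 thinned. The 3 values lie within 1 SE of each other.

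miR-133b-3p was lower in serum by -6.81 ± 0.47 in young, -6.58 ± 0.49 in old and -5.87 ± 0.30 in disuse. Thinned, it stood at -5.58 in young and -5.05 in old. It entered these fits only through its muscle counts, so its values are a description. miR-133a-5p was lower by -2.75 ± 0.48 in young, -1.73 ± 0.39 in old and -1.56 ± 0.36 in disuse. In old mice it passed the filter in serum too (edgeR adjusted p = 5.55e-04). In young and disuse mice it passed only through muscle, with 2 of 5 serum libraries at the level the filter asks for, so its values there are a description. On the linear scale the 5p strand was 6.73-fold, 3.31-fold and 2.95-fold lower. The young value was -2.13 with library totals. In disuse the value was -0.89 (edgeR adjusted p = 0.0624) when every library was thinned to 128216 counts, the depth of its shallowest. Scaling mattered more here than within a source: the median of all tested miRNAs in young serum against young muscle was -0.34 with TMM factors and 0.17 with library totals.

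An interaction term in a fit of the 29 libraries tested whether the change with age or disuse itself differed by source. For age 0.83% of 241 tested miRNAs were called, and for disuse 0% (24 with an unadjusted p under 0.05 in edgeR, 0 called by DESeq2). None of the 3 members was called in either by edgeR (0 by DESeq2). For miR-133a-3p the difference was -0.03 ± 0.43 with age and 0.04 ± 0.41 with disuse. For miR-133a-5p it was 1.03 ± 0.68 with age (edgeR adjusted p = 0.506) and 1.23 ± 0.64 with disuse (edgeR adjusted p = 0.579). For miR-133b-3p it was 0.25 ± 0.77 with age and 1.00 ± 0.64 with disuse (edgeR adjusted p = 0.92 and 0.74). miR-133b-3p had 8, 8 and 27 counts in young, old and disuse serum and did not pass the filter within serum. Its values here are therefore a description. The miR-133a-5p values rest on 1 to 19 counts per serum library.

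The balance of the strands of miR-133a was followed as the log2 ratio of miR-133a-3p to miR-133a-5p within each library, a measure that library scaling does not touch. A count of 0.5 was added to each strand. In young muscle the ratio was 10.85, 11.55, 11.39, 10.03 and 12.01. In old muscle it was 12.26, 11.11, 12.16, 11.05 and 12.26. In disuse muscle it was 12.08, 12.25, 11.23, 12.40 and 12.70. The muscle groups overlapped, with young muscle 4 lowest and disuse muscle 5 highest.

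The serum ratios were 5.52, 6.31, 5.01, 5.31 and 6.42 in young. In old serum they were 4.94, 4.66, 6.22 and 5.64. In disuse serum they were 4.99, 5.43, 6.16, 6.65 and 5.32. Every serum library lay below every muscle library, with 6.65 as the highest serum and 10.03 as the lowest muscle value. The means were 5.71 ± 0.62 (n = 5), 5.37 ± 0.70 (n = 4) and 5.71 ± 0.68 (n = 5) in serum. They were 11.17 ± 0.76, 11.77 ± 0.63 and 12.13 ± 0.56 in young, old and disuse muscle (SD, n = 5 each).

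Serum was lower than muscle by -5.45 ± 0.44 in young and -6.42 ± 0.39 in disuse (SE; two-sided exact permutation p = 0.00794 for both, adjusted p = 0.0417). In old mice the difference was -6.40 ± 0.45, with an exact permutation p of 0.0159 and an adjusted p of 0.0556. With 0.5 added to a 5p count of 0, the ratio is capped by the 3p counts, 107 to 1052 per serum library. In old and disuse serum that cap lies below every muscle ratio of the condition, so the separation and its p were fixed by depth. In young serum only library 1, with 620 counts, could have reached a muscle library. These differences are therefore a description. The pooled shares that follow have no such cap. As a share of miR-133a counts, the 5p strand was 0.0250% in muscle as a whole, 4036 of 16131325 counts (exact 95% binomial interval 0.0243% to 0.0258%). In serum as a whole it was 1.97%, 109 of 5539 counts (1.62% to 2.37%). By condition the serum share was 1.88% in young, 2.38% in old and 1.83% in disuse, and the muscle share was 0.0353%, 0.0254% and 0.0197%. Without old serum 2 the old serum share was 1.59%, 12 of 757 counts. The serum ratios rest on few 5p counts, and young serum 5 had 1 in 129, a share of 0.775% with an exact 95% interval from 0.0196% to 4.24%.

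Within muscle the ratio was higher in disuse than in young by 0.97 ± 0.42 (exact permutation p = 0.0556, adjusted p = 0.167), and old exceeded young by 0.60 ± 0.44 (exact permutation p = 0.23, adjusted p = 0.455). Old and disuse muscle differed by -0.36 ± 0.38 (exact permutation p = 0.294, adjusted p = 0.514). Leaving out disuse muscle 3, the shallowest muscle library, gave 1.19 for disuse against young (exact permutation adjusted p = 0.0476), and leaving out young muscle 4 gave 0.68 (adjusted p = 0.292). Depth moved with this ratio in muscle: across the 15 libraries the log2 total and the arm ratio had Pearson r = 0.74 and Spearman rho = 0.80 (permutation p = 0.00186 and 6.1e-04, adjusted over 4 relations 0.00372 and 0.00122). Without the 2 libraries of the most extreme depth r was 0.76, and with group means removed it was 0.75. Young muscle was the shallowest group. When every muscle library was thinned to 254624 counts, disuse exceeded young by 0.87 (exact permutation adjusted p = 0.238). The part of depth in the difference was not otherwise tested. Serum groups differed by at most 0.35 in size, with exact permutation p-values of 0.429 to 0.984.

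**Figure D3:**
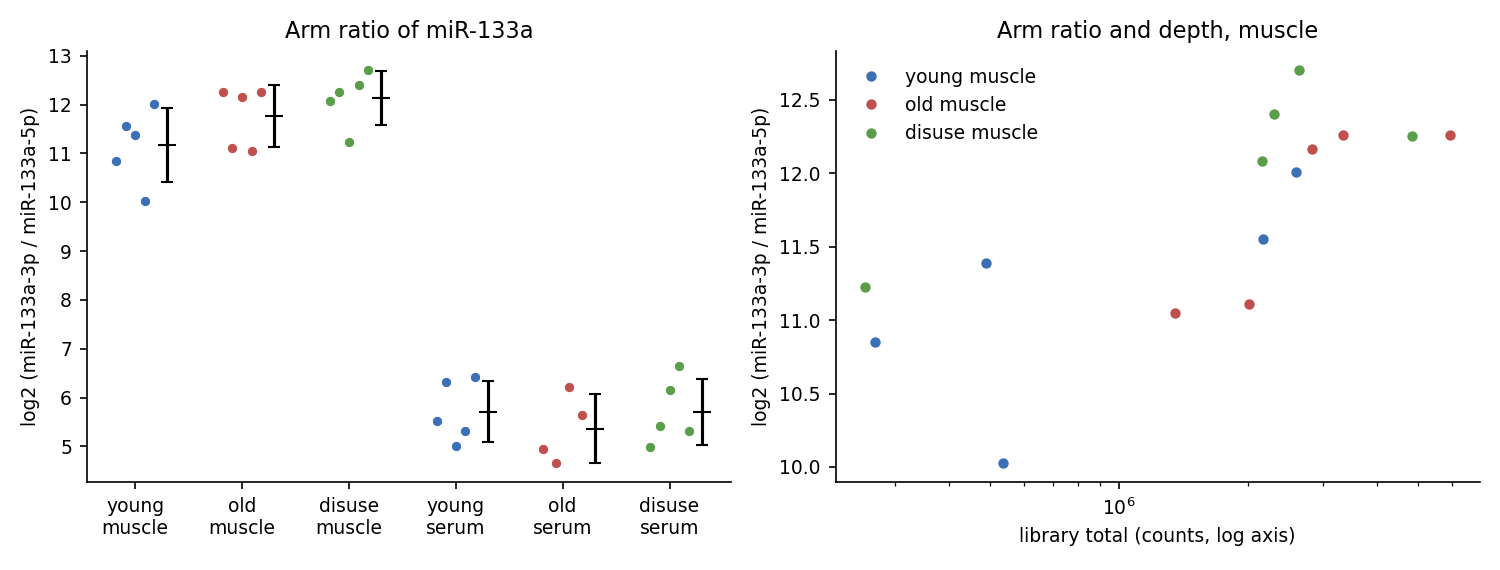
Left, log2 ratio of miR-133a-3p to miR-133a-5p in each library by group, with mean and SD; right, the same ratio in muscle against the library total (log axis). Muscle libraries lie between 10.03 and 12.70 and serum libraries between 4.66 and 6.65, and the deeper muscle libraries have the higher ratios.

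The change in strand balance was set beside that of every other hairpin with both strands tested in the same fit. For each hairpin the log2 fold change, serum against muscle, of the less abundant strand in muscle was subtracted from that of the more abundant one. In young mice miR-133a stood at -5.35, the 3rd lowest of 21 hairpins after miR-145a (-6.12) and miR-1843b (-6.09), with a median of 1.41. In old mice it stood at -6.39, the 2nd lowest of 75 after miR-145a (-6.50), with a median of 0.09. In disuse it stood at -6.58, the lowest of 21, followed by miR-145a (-6.11), with a median of -0.96. miR-145a is a miRNA of smooth muscle. miR-486, which is abundant in muscle and in red cells, moved the other way, by 5.18, 5.36 and 5.33. miR-133a also had the most unequal strands in muscle in young and disuse, and 1 hairpin was more unequal in old. These positions are a description of the hairpins that passed the filter, and no test was made of them.

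**Figure D4:**
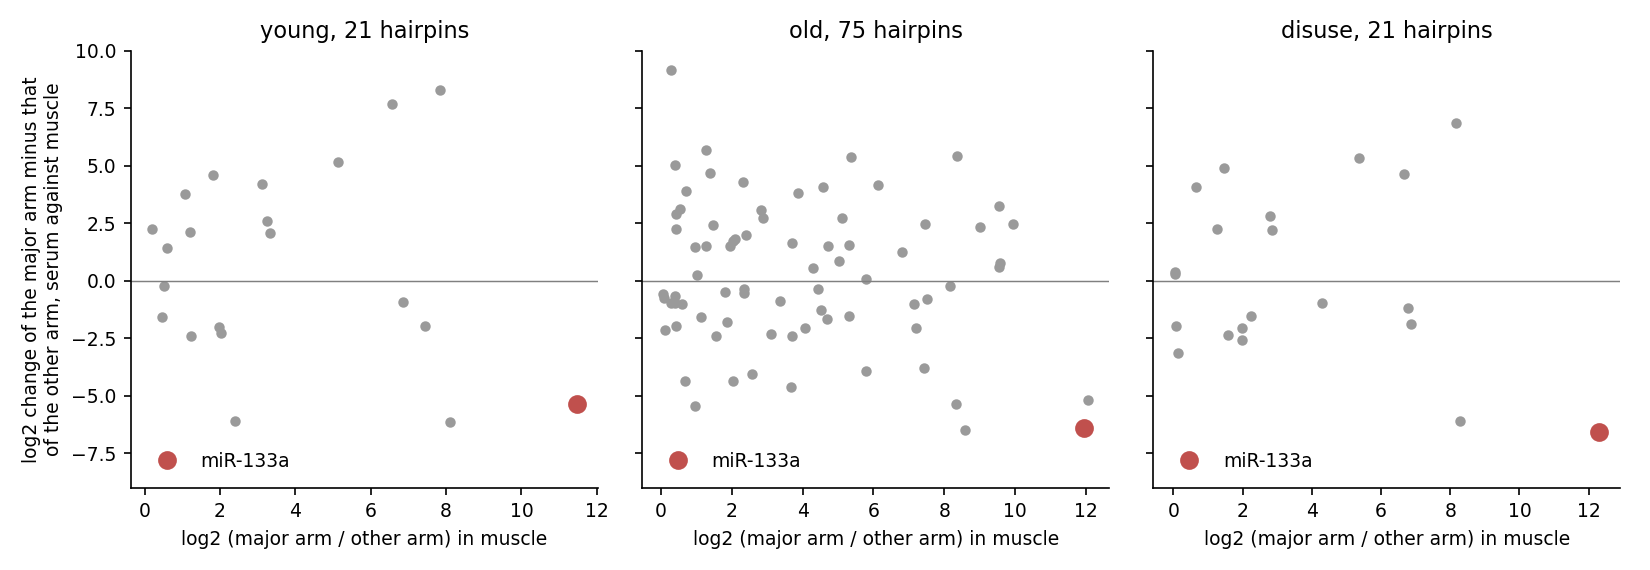
For each hairpin with both strands tested, the log2 change (serum against muscle) of the strand more abundant in muscle minus that of the other strand, against the log2 ratio of the strands in muscle, for young, old and disuse mice. miR-133a (red) lies at the lower right in each panel, at -5.35, -6.39 and -6.58.

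The ratio of miR-133b-3p to miR-133a-3p did not need scaling either. In young muscle its log2 value was -8.66, -8.94, -8.86, -9.51 and -9.08. In old muscle it was -8.47, -9.06, -8.52, -9.02 and -8.75. In disuse muscle it was -8.98, -8.37, -8.75, -8.83 and -8.85. The ranges overlapped, and young muscle 4 was the lowest. The means were -9.01 ± 0.32, -8.76 ± 0.27 and -8.76 ± 0.23 (SD, n = 5 each). Old minus young was 0.24 ± 0.19 and disuse minus young 0.25 ± 0.18 (exact permutation p = 0.238 and 0.198, adjusted p = 0.455 for both). Old and disuse differed by less than 0.01 (exact permutation p = 0.968).

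Of the counts of both 3p strands in muscle, miR-133b-3p made up 0.192% in young, 0.251% in old and 0.248% in disuse. In serum it made up 0.478%, 8 of 1675 counts, in young (exact 95% interval 0.206% to 0.939%). It made up 0.669%, 8 of 1196, in old (0.289% to 1.31%) and 1.04%, 27 of 2602, in disuse (0.685% to 1.51%). Young serum 4 gave 4 of the 8 counts in young serum, and without it the share was 0.268%, 4 of 1493 counts (0.0730% to 0.685%). The difference from muscle was not tested across libraries, because most serum libraries held 0 to 4 counts of miR-133b-3p.

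The members were also followed against each other across libraries, in 4 relations chosen after the values were seen, with 100000 permutations each. In the 15 muscle libraries the log2 CPM of miR-133a-3p and miR-133b-3p varied together, with Pearson r = 0.82 and Spearman rho = 0.83 (permutation p = 2e-04 and 2.2e-04, adjusted 8e-04 and 8.8e-04). It was 0.80 without old muscle 4 and young muscle 3, the libraries farthest from the median of miR-133a-3p, and 0.79 with group means removed. How reads were split between the 2 miRNAs bears on this relation and was not tested.

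The strands of miR-133a went opposite ways in muscle: miR-133a-3p and miR-133a-5p had r = -0.57 and rho = -0.66 (permutation p = 0.0262 and 0.00874, adjusted 0.0262 and 0.00874). Without the same 2 libraries r was -0.79, and with group means removed it was -0.46. By group r was -0.27 in young, -0.87 in old and -0.59 in disuse muscle. In the 14 serum libraries the same strands had r = 0.70 and rho = 0.71 (permutation p = 0.00481 and 0.00654, adjusted 0.00641 and 0.00872). There r was 0.60 without young serum 4 and disuse serum 2 and 0.71 with group means removed. By group it was 0.72 in young, 0.07 in old and 0.81 in disuse serum, so it was not seen in old serum. The 5p values rest on 1 to 19 counts per serum library. miR-133a-3p took 37.6% to 52.2% of a muscle library, so its level and those of other miRNAs are tied through the total.

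The miRNAs whose log2 CPM, scaled with TMM factors, was most like that of each member are given by Pearson r, as a description. Among 338 others over the 15 muscle libraries, miR-133a-3p was most like miR-25-3p (0.87), miR-339-5p (0.85) and miR-151-5p (0.83). miR-133b-3p was most like miR-22-5p (0.90), miR-25-3p (0.86) and miR-378b (0.83). miR-133a-5p was most like miR-10b-5p (0.82), miR-19b-3p (0.81) and miR-322-5p (0.76). Over the 14 serum libraries and 163 others, miR-133a-3p was most like miR-22-3p (0.66), miR-199b-3p (0.64) and miR-199a-3p (0.62). miR-133a-5p was there most like miR-30e-5p (0.75), miR-19b-3p (0.70) and miR-378a-3p (0.65). The libraries share their depth and scaling in all these values.

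The cluster partners had fewer counts than miR-133a-3p, and whether counts of different miRNAs follow their amounts was not tested. miR-1a-3p, a myomiR transcribed with miR-133a, stood at 933 ± 337 CPM in young, 660 ± 122 in old and 693 ± 420 in disuse muscle (SD, n = 5 each). miR-206-3p, transcribed with miR-133b and known from developing and regenerating fibres, stood at 125 ± 53.2, 149 ± 37.6 and 101 ± 55.6 CPM. Neither was called within muscle by edgeR: miR-1a-3p differed by -0.52 ± 0.30 between old and young and by -0.33 ± 0.30 between disuse and young (adjusted p = 0.327 and 0.81). miR-206-3p differed by 0.21 ± 0.32 and -0.19 ± 0.32 (edgeR adjusted p = 0.725 and 0.88).

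In serum miR-1a-3p had 12, 15 and 12 counts in the young, old and disuse groups together, and miR-206-3p had 5, 7 and 13. Against muscle, miR-1a-3p was lower in serum by -6.28 ± 0.60, -4.98 ± 0.50 and -6.35 ± 0.61 in young, old and disuse. miR-206-3p was lower by -4.73 ± 0.66, -3.92 ± 0.61 and -3.57 ± 0.54. Both passed the filter only through muscle, where they are high, so these values are a description. Both fitted differences are smaller in size than that of miR-133a-3p. They rest on these low serum counts, and the difference between miRNAs was not tested.

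The wider list of muscle miRNAs held 10 others in the table, the partners included, with strands of miR-486 and miR-3107, miR-208b and miR-499. In each muscle comparison 8 of them were tested and 0 called in either direction by edgeR, with medians of -0.48 for old against young, -0.15 for disuse against young and -0.30 for old against disuse. The medians of all tested miRNAs were -0.0072, -0.0019 and -0.0096. Within serum 3 were tested and 0 called. Against muscle, all of the 6, 7 and 6 tested in young, old and disuse serum were called, where 76.3%, 69.3% and 86.5% of all tested miRNAs were. In young and disuse serum 2 were higher and 4 lower, and in old serum 2 were higher and 5 lower. Of the lower ones, miR-1a-3p, miR-206-3p, miR-3107-3p and, in old mice, miR-499-5p had passed the filter only through muscle, so their direction was fixed by it. The higher ones were miR-486-5p, which red cells also carry, and miR-3107-5p, nearly identical to it and so uncertain in its counts. They stood at 1.44 ± 0.32 and 1.57 ± 0.33 in young mice (edgeR adjusted p = 4.45e-04 and 1.94e-04).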

How the data were processed

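Small RNA of 15 muscle and 14 serum libraries was counted. The authors deposited whole-number counts of reads per mature miRNA, not normalized. The submitters' processing notes name Bowtie and the build mm10. What the sources used here do not give are versions, the miRNA annotation and the treatment of multiply matching reads. Per the labels' protocols, libraries had at most 15 PCR cycles and were gel-selected at 145 to 160 bp. The table has 29 columns, all matched to a sample by title. Of its 1183 miRNAs, 488 have 28 values, of which the leading 13 are 0. If the missing value is a serum 0, which was assumed, they hold 0.0518% of muscle counts. These 488 were left out of totals. Because of the missing values the last column was recorded as other in unit. Its values in the deposited complete miRNAs are counts.

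Counts were tested with edgeR 4.0.16 in R 4.3.3 (glmQLFit, glmQLFTest, TMM factors, filterByExpr by group, Benjamini-Hochberg over all tested miRNAs). Muscle libraries were fitted together, serum libraries together, each condition's serum with its muscle, and all 29 for the interaction. Ratios used a pseudocount of 0.5 and exact permutation tests (scipy 1.17.1). Genome positions are from the GENCODE annotation and RefSeq, build GRCm38.p6. Alternatives were library totals, upper-quartile factors, DESeq2 1.42.0, other filters, a replicate block, thinning, totals without miR-133a-3p and leaving out each library. Pooled shares without each library, and the source that carries a miRNA through the filter, were added after seeing the data. The script was checked on simulated counts. No pair of libraries within a group (56 pairs) agreed within sampling noise, with 15.7 as the lowest chi-square per degree of freedom. No label gives a batch. Members are named in every comparison; the partners, the muscle list and the 3 miRNAs most like each member follow a written rule. The members and lists were chosen with earlier results of these data known.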

Additional observations from a re-analysis of the deposited data

Results flagged for a closer look

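In disuse muscle, library 2 had 1487.3 CPM of miR-133b-3p, and the other 4 libraries had 917 to 1074. Its gap to the next library was 0.725 of the group's range, above Dixon's 95% critical value of 0.71 for 5 samples. Of 33 groups of values examined 1 was marked in this way, and chance marks about 1 in 20. That library was the deepest of disuse muscle, with 4822157 counts. Its ratio of miR-133b-3p to miR-133a-3p, -8.37 on the log2 scale, was the highest of the 15 muscle libraries.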

How the results depend on the processing

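Of the alternatives other than leaving out a library, none took away a call of miR-133a-3p in serum against muscle where it gave a value. The same holds for miR-133a-5p in old serum against muscle. There miR-133b-3p, and miR-133a-5p in young and disuse, passed the filter only through muscle, so their values are a description. After thinning, miR-133a-5p in disuse serum against muscle stood at -0.891. Thinning left miR-133a-5p under the filter within serum, in young and old serum against muscle and in the interactions, so it gave no value there; miR-133a-3p has none where it is left out of the totals. Other differences changed sign, none of them called. Old against young muscle was -0.117 for miR-133a-3p with upper-quartile factors. In old against young serum miR-133a-3p stood at 0.031 with DESeq2, 0.025 with no filter, 0.088 with a filter of 10 CPM and 0.073 with the replicate block. With library totals it was -0.039 in disuse against young serum, and miR-133a-5p was -0.041 in old against disuse serum. With the replicate block miR-133a-3p was -0.064 in disuse against young and 0.137 in old against disuse serum. Its age interaction was 0.124 (upper quartile), 0.093 (DESeq2) and 0.057 (replicate block). Its disuse interaction was -0.181 (library totals), -0.117 (upper quartile), -0.041 (DESeq2), -0.218 (10 CPM), 0 to 3 decimals (replicate block) and -0.226 (thinned). The age interaction of miR-133b-3p was -0.977 thinned and -0.082 without miR-133a-3p in the totals. The log2 share gave 0.055 for old against young and 0.075 for old against disuse serum. The arm ratio gave 0.023 for disuse against young serum with a pseudocount of 1, and 0.052 and 0.234 for old against young and old against disuse serum when thinned. The cause was not tested.

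Counts of called miRNAs moved more. Old against young muscle gave 36 with upper-quartile factors and 6 thinned, against 20. Disuse against young muscle gave 2 (upper quartile), 2 (no filter) and 0 (10 CPM, replicate block, thinned), against 1. Old against disuse muscle gave 4 thinned, against 12. Old against young serum gave 5 (library totals), 7 (10 CPM) and 7 (thinned), against 16. Disuse against young serum gave 5 with no filter. Old against disuse serum gave 0 with library totals, 10 CPM and the replicate block, against 4. Against muscle, young serum gave 270 and disuse serum 327 with no filter, against 145 and 166, and old serum 89 thinned, against 219. The age interaction gave 5 (upper quartile), 11 (DESeq2), 6 (no filter), 1 (replicate block), 0 (thinned) and 8 (without miR-133a-3p in the totals), against 2, and the disuse interaction 5 with no filter.

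Leaving out each library gave these ranges where a sign or call changed. Arm ratio: disuse against young muscle 0.682 to 1.194, young serum against muscle -5.736 to -5.241 and disuse serum against muscle -6.659 to -6.245 (adjusted p of 0.0556 for each library left out of both), disuse against young serum -0.24 to 0.174. Share: young serum against muscle -44.49 to -41.536 and disuse -48.176 to -47.293 (the same adjusted p), disuse against young serum -0.054 to 0.048, old against young serum -0.08 to 0.023, old against disuse serum -0.068 to 0.003, old against disuse muscle -3.001 to 0.532. For these serum against muscle arm ratios and shares the lost calls follow from the number of libraries. The smallest exact permutation p for 4 against 5 libraries is 0.0159, which adjusts to 0.0556 here. The miR-133b to miR-133a ratio was -0.082 to 0.088 for old against disuse muscle. In the edgeR fits miR-133a-3p ranged from -0.188 to 0.308 (disuse against young serum), -0.264 to 0.236 (old against young serum), -0.259 to 0.136 (old against disuse serum), -0.188 to 0.036 (old against disuse muscle), -0.377 to 0.125 (age interaction) and -0.229 to 0.268 (disuse interaction). miR-133a-5p ranged from -0.246 to 0.571, -0.25 to 0.719 and -0.392 to 0.538 in those serum comparisons. miR-133b-3p ranged from -0.244 to 0.106 (old against disuse muscle) and -0.19 to 0.826 (age interaction).

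Other uncalled differences kept their sign and call but moved by over 1.5 times. In edgeR, old against young muscle ranged from 0.028 to 0.268 (miR-133a-3p), -0.744 to -0.119 (miR-133a-5p) and 0.232 to 0.605 (miR-133b-3p). For miR-133a-5p, disuse against young muscle was -1.104 to -0.432, old against disuse muscle 0.126 to 0.524, the age interaction 0.366 to 1.43 and the disuse interaction 0.582 to 1.476. The disuse interaction of miR-133b-3p was 0.643 to 1.533. The arm ratio was 0.32 to 0.815 (old against young muscle), -0.59 to -0.183 (old against disuse muscle), -0.632 to -0.114 (old against young serum) and -0.627 to -0.108 (old against disuse serum). The miR-133b to miR-133a ratio was 0.118 to 0.331 (old against young) and 0.128 to 0.34 (disuse against young). The share was 1.559 to 5.092 for old against young muscle.

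Correlations of same-numbered deviations ran from -0.32 to 0.45, and no pair of groups had all of them above 0.1. With 4 or 5 such correlations per pair of groups, this cannot settle whether replicate numbers pair the samples. The replicate block is given here only, because no label says what the numbers mark. Depth limits miR-133b-3p most in serum, where 1 count is 3.23 to 22.1 CPM.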
